A study of Mus musculus with 69 samples.

Results

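The genes described here are the numbered cadherins (Cdh) and the protocadherins (Pcdh) of the mouse, 55 of the 18194 genes read from the arrays. A gene was taken by its symbol and read from 1 probe set, namely, of the probe sets annotated to that gene alone, the one whose log2 signal averaged highest over the 69 cells. The set holds 20 cadherins, 12 non-clustered protocadherins, 22 beta protocadherins and 1 gamma protocadherin. The study profiled single cells of the dorso-lateral cerebral wall of CD1 mouse embryos at embryonic day 14, each cell amplified by itself and put on a whole-genome Affymetrix array. Of 102 cells amplified, 70 were put on arrays and 69 are analysed here: 66 came from the VZ/SVZ (the ventricular and subventricular zones, which line the ventricle and hold the dividing neural progenitors) and 3 from the CP (the cortical plate, to which young neurons migrate). No genotype, agent or treatment separates the groups, and the same bacterial spike RNAs were added to every cell. For the 3 CP cells the source and description labels disagree, and the source label was used. The titles also carry a letter whose meaning the labels do not state: A (7 cells), B (14), C (7), D (7) and X (31) are all VZ/SVZ, and E is the 3 CP cells.

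Cadherins are surface proteins that bind their own kind on a neighbouring cell through calcium-dependent repeats. Classical cadherins tie the cell to its neighbours through catenins and the actin skeleton, hold the ventricular lining together and differ between cortical areas and layers. The delta protocadherins adhere more weakly, and several of them (Pcdh10, Pcdh17, Pcdh18 and Pcdh19 among them) can recruit the WAVE complex, which drives actin branching. The clustered protocadherins (alpha, beta and gamma) sit in tandem in the genome, and a neuron is known to express a small, partly random choice of them that acts as a surface identity.

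A signal above 50 was taken as detection, and signals under 50 were set to 50 before log2 was taken. None of the 207 values of TrpnX, a control RNA not among the spikes listed, passed 50. The 3 prime probe sets of lys (1000 copies per cell), dap (100) and phe (20) passed in all 69 cells, and that of thr (5 copies) in 27, so an RNA of a few copies was detected in only part of the cells. Signal also depended on where a probe set lies on the RNA: the 5 prime probe sets of dap passed in only 3 and 4 cells. Members whose probe sets lie far from the 3 prime end can therefore read low, and the number of cells per member does not rank RNA levels between genes. Between 3713 and 5715 genes passed 50 per cell, and the median was 4712 for the VZ/SVZ and 3904 for the CP.

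The cells matched their labelled region by markers in the VZ/SVZ and less so in the CP. Lhx2, a dorsal forebrain factor, was above 50 in 66 of 66 VZ/SVZ cells and in 0 of 3 CP cells, and Emx1 in 1 CP cell. All 7 measured neuron markers (Tubb3, Dcx, Stmn2, Mapt, Tbr1, Bcl11b and Neurod6) passed in at least 1 CP cell. Markers of other cell types were nearly absent from the VZ/SVZ: the marker found most often was Reln of Cajal-Retzius cells in 4 cells, no gene of the interneuron list passed in more than 1, and no microglial or erythroid gene passed in any. Of the 6 interneuron genes, 4 passed in some VZ/SVZ cell, and 1 cell held 2 or more of them. That cell also held Sox2, Eomes and Tubb3 and was kept. In the CP none of the lists of other cell types had a gene above 50. Among the VZ/SVZ cells, 49 held Sox2 (a factor of dividing neural progenitors), 28 held Eomes (the factor of intermediate progenitors) and 35 held Tubb3 (a neuronal tubulin). The letters followed these markers: all 7 A cells held Sox2 and none Eomes, 13 of 14 B cells and 7 of 7 C cells held Eomes, all 7 D cells held Tubb3 and none Sox2 or Eomes, and X held 26, 8 and 11 of 31. No label names an animal or litter, so a group stands for 1 sample, its cells do not replicate a condition, and p-values are not given. Percentages carry exact Clopper-Pearson 95% intervals, which cover counting error only, and an SD is the spread between cells.

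Of the 55 members, 33 passed 50 in at least 1 cell and 22 (40%) in none, against 38.4% of all genes. Only 14 members (25.5%) passed in at least 10% of the cells, against 48.3% of all genes. Those 14 were 6 cadherins (Cdh4, Cdh6, Cdh8, Cdh10, Cdh11 and Cdh13), 6 non-clustered protocadherins (Pcdh8, Pcdh9, Pcdh10, Pcdh17, Pcdh18 and Pcdh19), Pcdhb17 and Pcdhgc4. Of the 20 cadherins, 11 were never detected: the epithelial Cdh1, the placental Cdh3 and the endothelial Cdh5, and Cdh9, Cdh15, Cdh16, Cdh17, Cdh18, Cdh19, Cdh23 and Cdh26. Their brightest signal in any cell was 24.2, for Cdh26. Of the 5 genes on the endothelial marker list, Pecam1, Cldn5, Kdr and Tek also passed in no cell. The fifth, Esam, passed in 1 VZ/SVZ cell. For a gene at 0 of 66 VZ/SVZ cells, a limit of 3 counts allows a share of up to 4.55%. Every cell held at least 1 member: the number per cell ran from 1 to 10 with a median of 4.5 in the VZ/SVZ, and was 3, 6 and 7 in the CP cells.

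Each detected member passed 50 in part of the cells and was at background in others. Cdh4 (R-cadherin), a classical cadherin of the neural retina and forebrain, had a signal above 50 in 45 of 66 VZ/SVZ cells (68.2%, interval 55.6% to 79.1%), from a lowest signal of 0.632 through a median of 529 to a highest of 4012. Cdh6, a type II cadherin known for marking areal borders in the developing cortex, passed in 32 cells (48.5%), with a lowest, median and highest signal of 0.812, 11 and 2307. Pcdh8 also passed in 32 cells, with values of 0.302, 34.8 and 2084. In the plot of signal per cell, the values of a member lie in an upper and a lower band, with few near 50. Pcdh10, known for a part in axon growth through the striatum, passed in 26 cells and reached 650.3. Pcdh9, another delta protocadherin, passed in 25 and reached 2170. Cdh10, another type II cadherin, passed in 22 (33.3%) and reached 1891, and Pcdh19, the gene of a female-limited epilepsy, passed in 19 (28.8%) and reached 2165. Cdh11 passed in 12 VZ/SVZ cells, Pcdh18 in 12, Pcdh17 in 11, Cdh8 in 9 and Cdh13 in 6, so each of these was not detected in most cells.

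**Figure D1:**
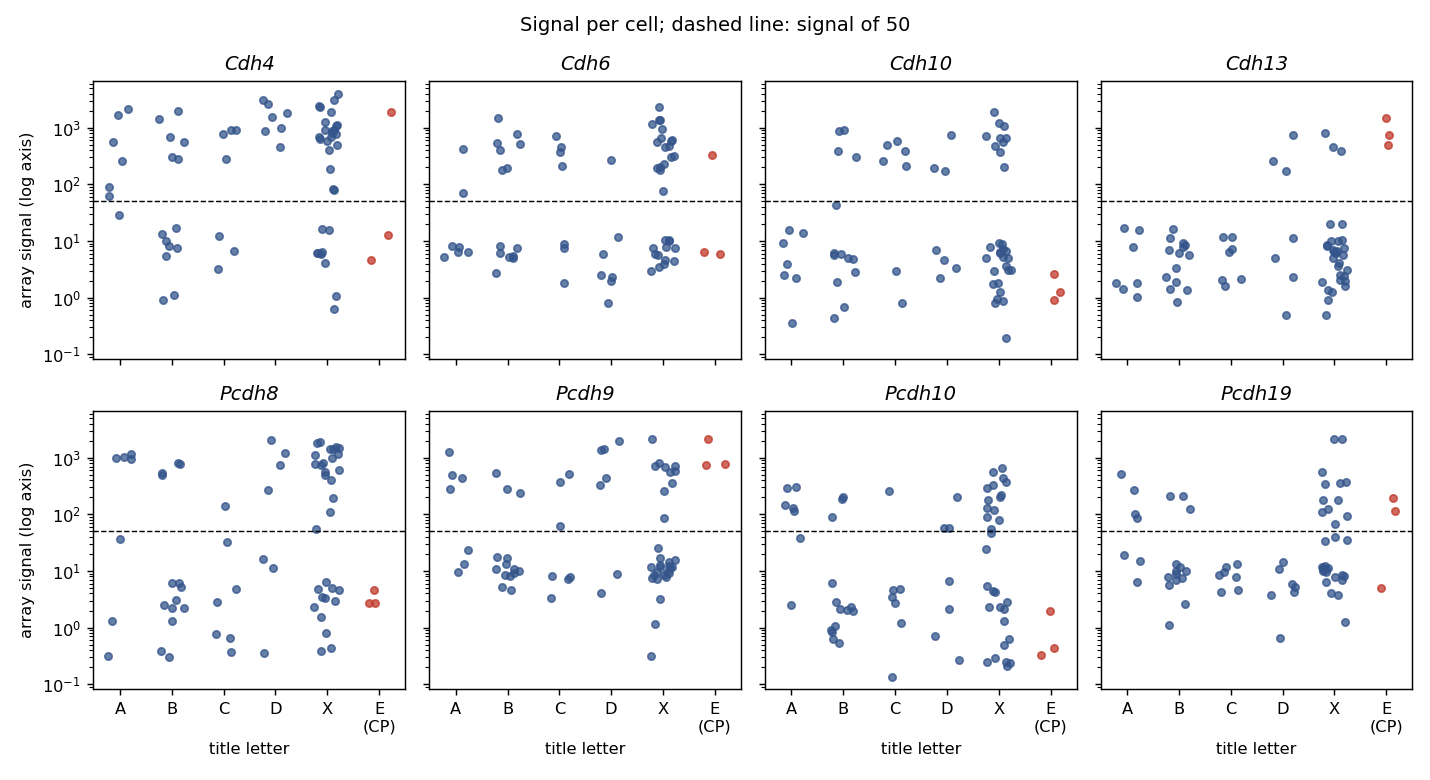
Signal of 8 members in each cell (log axis) by title letter. Points are single cells, blue for VZ/SVZ and red for the 3 CP cells, spread sideways only for sight, and the dashed line marks a signal of 50. Cdh13 and Pcdh9 are above the line in all 3 CP cells, and Pcdh8, Pcdh10 and Cdh10 in none.

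Promoter sequences of 4 members are shown because their detection followed the markers in different ways: Cdh6 and Pcdh19 were found more often where Sox2 was present and Tubb3 absent, Pcdh10 where Eomes was absent, and Cdh10 where Eomes or Tubb3 was present. They are the 250 bases before the annotated start, 5 prime to 3 prime on the strand of the gene, from RefSeq's table of GRCm38.p6. The windows are chr15:13173676-13173925 (minus strand) for Cdh6, chr3:45378148-45378397 (plus) for Pcdh10, chrX:133688994-133689243 (minus) for Pcdh19 and chr15:18820079-18820328 (plus) for Cdh10. Capitals mark matches to a searched motif on either strand.
Cdh6: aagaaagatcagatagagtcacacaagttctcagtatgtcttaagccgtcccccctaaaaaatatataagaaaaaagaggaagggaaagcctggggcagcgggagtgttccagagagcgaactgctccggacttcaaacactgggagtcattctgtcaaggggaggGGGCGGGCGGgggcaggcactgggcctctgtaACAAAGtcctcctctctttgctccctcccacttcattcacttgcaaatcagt
Pcdh19: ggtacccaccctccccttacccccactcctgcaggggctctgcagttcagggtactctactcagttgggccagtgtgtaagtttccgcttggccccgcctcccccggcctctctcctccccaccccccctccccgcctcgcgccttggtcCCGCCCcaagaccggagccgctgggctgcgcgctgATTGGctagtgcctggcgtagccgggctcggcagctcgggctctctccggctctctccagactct
Pcdh10: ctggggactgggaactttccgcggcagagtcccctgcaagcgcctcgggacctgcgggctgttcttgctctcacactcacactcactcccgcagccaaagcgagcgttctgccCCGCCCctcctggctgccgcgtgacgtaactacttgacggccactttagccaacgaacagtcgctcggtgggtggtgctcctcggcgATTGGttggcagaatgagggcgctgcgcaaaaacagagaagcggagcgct
Cdh10: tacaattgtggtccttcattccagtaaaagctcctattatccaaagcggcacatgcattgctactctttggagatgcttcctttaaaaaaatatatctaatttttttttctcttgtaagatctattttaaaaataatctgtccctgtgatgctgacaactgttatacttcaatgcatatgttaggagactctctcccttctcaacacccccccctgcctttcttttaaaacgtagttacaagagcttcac
The letters CAGATG, an E-box of proneural factors, were searched on both strands, as was the palindromic E-box CAGCTG. The other motifs were ACAAAG, a core bound by SOX factors, a variant of that core (ACAATG), the TATA box (TATAAA), the CCAAT box and the GC box GGGCGG. The Cdh6 promoter held ACAAAG once and 2 overlapping copies of GGGCGG. Pcdh10 and Pcdh19 each held CCAAT and GGGCGG once, both on the opposite strand, and Cdh10 held none of the 7 motifs. The promoters differed in base composition: 69.2% G and C with 16 CpG dinucleotides for Pcdh19, 63.2% with 22 for Pcdh10, 51.2% with 6 for Cdh6 and 36.8% with 2 for Cdh10, against medians of 52% and 6 over all promoters. Of the 55 members, 20 had a promoter in the table. CCAAT was in 14 of those 20 and in 34.5% of 27025 promoters, GGGCGG in 8 and in 32.9%, ACAAAG in 4 and in 16.5%, TATAAA in 2 and in 13%, and CAGCTG in 1 and in 12.8%. The proneural E-box and the variant SOX core were in 0 of the 20, and in 14.5% and 11% of all promoters. A match only describes these letters.

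The first comparison set the CP against the VZ/SVZ. Cdh13 (T-cadherin, a cadherin held in the membrane by a lipid anchor, with no cytoplasmic tail) and Pcdh9 were higher in the CP cells, and Pcdh8 and Cdh10 were detected in none of them. Cdh13 signals were 1511, 760 and 498 in CP replicates 1, 2 and 3, while in the VZ/SVZ the lowest, median and highest were 0.496, 6.18 and 798.2. Each CP cell was thus above all but the brightest VZ/SVZ cells, and the groups overlapped only through those. The mean log2 signal was 9.70 ± 0.81 (SD, 3 cells) against 5.92 ± 0.91 (66 cells), a difference of 3.78. Averaged over all 4 of its probe sets Cdh13 did not leave the floor, and the difference was 0. Pcdh9 signals were 765, 2165 and 755 in the CP cells and had a median of 13.3 in the VZ/SVZ. Its mean was 10.07 ± 0.87 against 6.90 ± 1.79, a difference of 3.17, but 25 VZ/SVZ cells also passed 50 and the highest of them, at 2170, matched the brightest CP cell. With the mean of its 3 probe sets the Pcdh9 difference was 0.49, under the rule of size used below. Pcdh8 read 4.63 or less in the CP cells against a VZ/SVZ mean of 7.49 ± 2.10, and Cdh10 read 2.61 or less against 6.75 ± 1.66. The differences were -1.85 and -1.11 with all 3 CP cells at the floor of 50, and -3.41 and -2.22 with the floor lowered to the 95th percentile of TrpnX (6.26). Cdh10 no longer reached 1 log2 unit with the floor at 100 or with the mean of its probe sets (-0.02).

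With a mean difference of at least 1 log2 unit as the rule of size, 3 of the 55 members were higher in the CP and 2 lower, that is 9.09% of them. Over all genes 5.07% were higher and 12.9% lower, 17.9% in all. Many members were detected in no cell and could not pass. Among the 14 members seen in at least 10% of cells, 2 were higher and 2 lower, 28.6% in all, against 9.43% and 26.6% of the 8784 such genes, 36% in all, and the median difference was -0.47 against -0.43. The third higher member was Pcdhb22, at 1.44, from a signal of 1413 in CP replicate 3 alone, and without that cell its difference was -0.16. Cdh6 came to -1.50 without CP replicate 1 and Cdh4 to -2.66 without CP replicate 3, against -0.60 and -0.91 with all 3, since each was detected in that CP cell only, at 327 and 1896. Pcdh20, detected in 1 CP cell and 2 VZ/SVZ cells, reached 1.04 without CP replicate 2 and again without replicate 3. Cdh11 read 214, 5.78 and 83.2, and Pcdh19 115, 5.00 and 194, so both were above 50 in 2 of 3 CP cells. Pcdh10, Pcdh17, Pcdh18, Cdh8, Pcdhb17 and Pcdhgc4 were above 50 in no CP cell, and at 3 cells the interval on each share runs up to 70.8%.

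The CP cells held fewer detected genes than the VZ/SVZ cells, as given above, and all 3 held Tubb3, at 2543, 2064 and 3001. The part of gene number in these differences was not tested. Measured against only the 35 VZ/SVZ cells with Tubb3, all 5 members still passed the rule, joined by Cdh4. Against only the 7 cells of letter D, which hold Tubb3 and neither Sox2 nor Eomes, the same 5 passed again with 4 others. The share of all genes past the rule against these sets of cells is not given. These counts therefore describe the members only and do not set them apart from other genes.

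Other probe sets of a gene give a check within these cells. Of 3 others for Cdh13, 1 passed 50 in 6 cells, all of them among the 9 found with the first and including all 3 CP cells, and the remaining 2 passed in 0 cells, CP included. A second Pcdh8 probe set passed in 31 cells, 29 of them shared with the 32 of the first, and in no CP cell. For Pcdh19 the more frequent of its 2 others passed in 17 cells, 10 shared, and in 2 CP cells. The support was weaker elsewhere. The more frequent other probe set of Pcdh9 passed in 3 cells (2 shared), 1 of them a CP cell, and the remaining one in 0 cells. Pcdh9 above 50 in all 3 CP cells thus rests on 1 probe set. The most frequent other one of Cdh10 passed in 4 cells (3 shared), 1 with Eomes and 3 without, and 2 with Tubb3 and 2 without. For Pcdh10 the most frequent other one passed in 10 (3 shared), 3 with Eomes and 7 without. That of Cdh6 passed in 1 (not shared), and the more frequent one of Cdh4 in 22 (18 shared). None of the other sets named for Cdh10, Pcdh10, Cdh6 and Cdh4 passed in a CP cell. The sets used for Cdh6 and Cdh4 each passed in 1.

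With the VZ/SVZ cells split by Sox2, few members passed the rule of size: Cdh6, Cdh4 and Pcdh9. Cdh6 was above 50 in 28 of 49 cells with Sox2 (57.1%, interval 42.2% to 71.2%) and in 4 of 17 without (23.5%, 6.81% to 49.9%). Its mean log2 signal was 7.45 ± 1.83 against 6.28 ± 1.19, a difference of 1.17. Cdh4 ran the other way, with 31 of 49 against 14 of 17 cells and medians of 278 and 975, and its mean was lower with Sox2 by 1.79 (7.84 ± 2.04 against 9.64 ± 2.10). Pcdh9 was above 50 in 15 of 49 against 10 of 17, and its mean differed by -1.37. These 3 members, 5.45% of the set, passed the rule of size, against 5.31% of all genes higher and 3.28% lower, 8.59% in all. Of the genes seen in at least 10% of cells, 11% were higher and 6.79% lower, 17.8% in all. Of the 14 such members 1 was higher and 2 lower, 21.4% in all. Outside letter X the Cdh6 difference was 0.68, under the rule. With the mean of all probe sets of a gene, 0 of the 3 members passed. The ranges overlapped for all 3: each had cells above and below 50 on both sides.

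The share of cells set Pcdh19 and Cdh13 apart more than the mean did. Pcdh19 was above 50 in 19 of 49 cells with Sox2 (38.8%, interval 25.2% to 53.8%) and in 0 of 17 without (upper limit 19.5%), where its highest signal was 33.4. Because most cells on both sides sat at the floor, the mean difference was 0.89, short of the rule. The second Pcdh19 probe set was found in 14 cells with Sox2 and 1 without. Cdh13 was above 50 in 1 of 49 cells with Sox2 and in 5 of 17 without, and Pcdhgc4 in 7 of 49 and 7 of 17. Pcdh10 was found in 22 of 49 and 4 of 17, while Pcdh8 did not separate, at 24 of 49 and 8 of 17. Cells with Sox2 had a median of 4889 genes above 50 and those without 4187, and the part of this in the shares was not tested. Of the 33 members detected in the VZ/SVZ, 15 were found in a larger share of the cells with Sox2 and 18 in a smaller one. Of all 11121 genes detected there, the counts were 6737 and 4037.

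**Figure D2:**
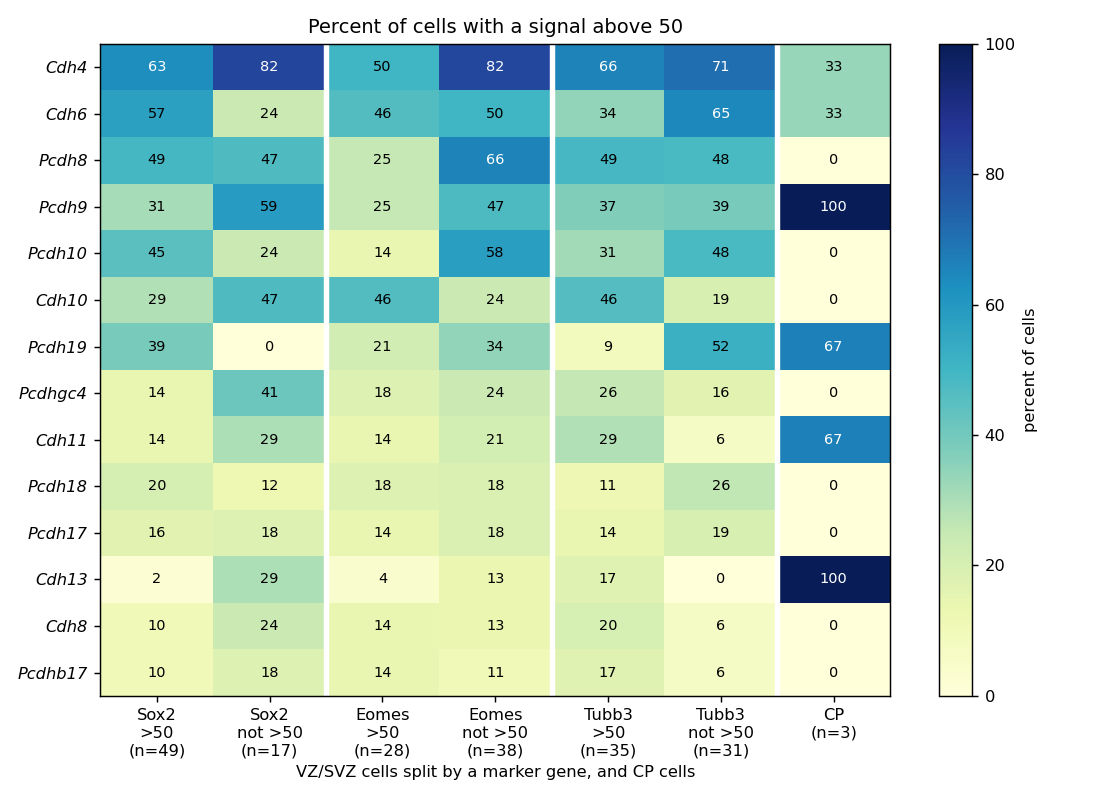
Percent of cells with a signal above 50 for the 14 members seen in at least 10% of cells (rows), in the VZ/SVZ cells with and without each marker gene and in the CP (columns, number of cells in brackets). Darker cells and the printed number give the percent, rounded. Pcdh19 is at 0 without Sox2, and Cdh13 at 0 without Tubb3 and at 100 in the CP.

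Where Eomes, the marker of intermediate progenitors, was present, fewer cells held Pcdh8, Pcdh9, Pcdh10 and Cdh4. Pcdh8 was above 50 in 7 of 28 cells with Eomes (25%, interval 10.7% to 44.9%) and in 25 of 38 without (65.8%, 48.6% to 80.4%), with medians of 3.45 and 534. Its mean was 6.60 ± 1.79 against 8.14 ± 2.09, a difference of -1.54, and its second probe set was found in 7 and 24 cells. Pcdh10 was above 50 in 4 of 28 (14.3%, 4.03% to 32.7%) against 22 of 38 (57.9%, 40.8% to 73.7%). Its low signals kept the mean difference at -0.88. Cdh4 was found in 14 of 28 against 31 of 38 and differed by -1.12, and Pcdh9 in 7 of 28 against 18 of 38 and differed by -1.04. Of the 33 members detected in the VZ/SVZ, 13 were found in a larger share of the cells with Eomes and 20 in a smaller one. Of all 11121 genes detected there, 5003 were found in a larger share and 5750 in a smaller one. Among the 14 members seen in at least 10% of cells Cdh10 had the widest gain, with a mean difference of 0.63. It was found in 13 of 28 cells (46.4%, 27.5% to 66.1%) against 9 of 38 (23.7%, 11.4% to 40.2%).

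By the rule of size 0 members were higher with Eomes and 3 lower (5.45%), against 1.1% and 1.14% of all genes, 2.25% in all. Of the genes seen in at least 10% of cells, 2.29% were higher and 2.37% lower, 4.66% in all, beside 0 and 3 of the 14 such members (21.4%). The median difference was -0.22 over these 14 and 0.00 over those genes. The median number of genes above 50 was 4644.5 with Eomes and 4810.5 without, and the part of this in the differences was not tested. Of all pairs of the 14 members, Pcdh8 and Pcdh10 had the largest overlap, taken as cells with both over cells with either (0.49). Both were held by 19 cells, which is 73.1% of the 26 cells with Pcdh10 and 59.4% of the 32 with Pcdh8. Over all 69 cells Pcdh8 was found in 46.4%. Cdh4, found in 66.7% of all cells, was in 76.9% of those with Pcdh10. Both Pcdh10 and Cdh10 were held by 5 cells, 19.2% of those with Pcdh10, and Cdh10 was found in 31.9% of all cells. Whether members share cells was not tested. Within letter X alone, Pcdh8 was above 50 in 3 of 8 cells with Eomes and 16 of 23 without, Pcdh10 in 1 of 8 and 13 of 23, and Cdh10 in 4 of 8 and 6 of 23. Among the other letters the counts were 4 of 20 and 9 of 15 for Pcdh8, 3 of 20 and 9 of 15 for Pcdh10, and 9 of 20 and 3 of 15 for Cdh10. All 3 thus pointed the same way inside and outside X. Cdh4 did not: its mean difference within X was 0.01, and outside X it was found in 9 of 20 cells with Eomes and 14 of 15 without. Within X none of the 3 members reached 1 log2 unit: Pcdh8 differed by -0.65 and Pcdh9 by -0.48. Among cells with Sox2, Pcdh8 still passed at -1.15, and Cdh4 (-0.70) and Pcdh9 (-0.57) did not.

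Tubb3 is a mark of neurons and of cells on the way to them. Where it was present, fewer cells held Cdh6 and Pcdh19 and more held Cdh10 and Cdh11. Cdh6 was above 50 in 12 of 35 cells with Tubb3 (34.3%, interval 19.1% to 52.2%) and in 20 of 31 without (64.5%, 45.4% to 80.8%), and its mean was lower by 1.08 (6.64 ± 1.49 against 7.72 ± 1.89). It was the 1 member of 55 (1.82%) to pass the rule, against 1.76% of all genes higher and 2.6% lower, 4.36% in all, and, over the genes seen in at least 10% of cells, 3.64% higher and 5.38% lower, 9.03% in all. Among the VZ/SVZ cells with Sox2 no member passed, and within letter X Cdh6 did not (-0.81), while Cdh4 and Pcdh8 were higher there by 1.82 and 1.11. Pcdh19 was found in 3 of 35 and 16 of 31 cells, with a mean difference of -0.89. Cdh10 was found in 16 of 35 and 6 of 31 and differed by 0.81. Other cadherins found more often with Tubb3 were Cdh11 (10 of 35 against 2 of 31), Cdh8 (7 against 2), Cdh13 (6 against 0) and Cdh7 (3 against 1). The other probe set of Cdh11 passed in 0 cells. Of the 9 cadherins detected in the VZ/SVZ, 5 were found in a larger share of the cells with Tubb3 and 4 in a smaller one. Those 4 were Cdh4 (23 of 35 against 22 of 31), Cdh6, Cdh20 and Cdh22. Of the 33 members detected there the counts were 21 and 12, and of all 11121 genes 5002 and 5772. Median gene numbers were 4622 with Tubb3 and 4889 without.

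The Pcdh19 and Cdh13 counts pointed the same way inside and outside letter X. Pcdh19 was above 50 in 1 of 11 X cells with Tubb3 and 11 of 20 without, and in 2 of 24 and 5 of 11 cells of the other letters. Cdh13 was found in 3 of 11 and 0 of 20 X cells, and in 3 of 24 and 0 of 11 others. For Cdh10 the X cells gave 4 of 11 and 6 of 20, and the others 12 of 24 and 0 of 11, so its pooled difference came mostly from outside X. By both markers, Pcdh19 was found in 16 of 30 cells with Sox2 and without Tubb3, in 3 of 19 with both and in 0 of 16 with Tubb3 alone. Cdh13 was found in 0, 1 and 5 of the same cells. In the CP, 2 of the 3 cells held Pcdh19, and both also held Cdh13.

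**Figure D3:**
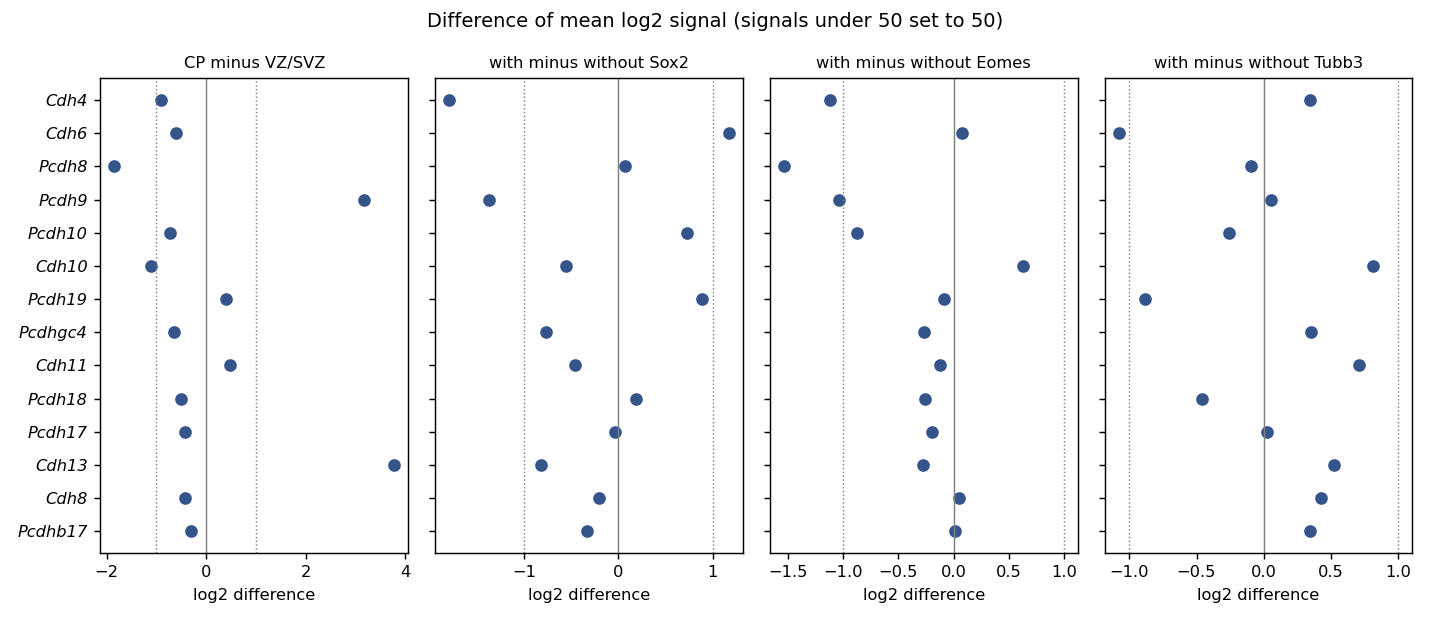
Difference of mean log2 signal, with signals under 50 set to 50, for the same 14 members in the 4 comparisons. A point right of 0 is higher in the group named first, dotted lines mark the rule of 1 log2 unit, and each panel has its own scale. Only Cdh13 and Pcdh9 pass 2 log2 units in size, both in the CP.

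By letter, the D cells, which held Tubb3 and neither other marker, had Cdh4 in 7 of 7, Pcdh9 in 5, Cdh11 in 4 and Cdh13, Cdh10, Pcdh8 and Pcdh10 in 3 or 4 each, with no Pcdh19. The A cells, which held Sox2 and no Eomes, had Cdh4 in 6 of 7, Pcdh10 in 5, and Pcdh8, Pcdh9 and Pcdh19 in 4 each, with no Cdh10, Cdh11 or Cdh13. The C cells, all with Eomes, had Cdh10 in 5 of 7 and Pcdh8, Pcdh10, Pcdh17 and Pcdh18 in 1 each. With 7 cells a letter, such counts have wide intervals, and a letter and its markers cannot be told apart.

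The beta protocadherins were sparse, and a larger share of the cells with Tubb3 than of those without held one. Of the 22 on the array, 13 passed 50 in some cell and 9 in none (Pcdhb1, Pcdhb2, Pcdhb5, Pcdhb6, Pcdhb10, Pcdhb12, Pcdhb13, Pcdhb14 and Pcdhb18). At least 1 was found in 16 of 35 VZ/SVZ cells with Tubb3 (45.7%, interval 28.8% to 63.4%), in 4 of 31 without (12.9%, 3.63% to 29.8%) and in 3 of 3 CP cells. The counts of single detections were 30, 4 and 3, and each of the 13 genes was found in more cells with Tubb3 than without, as were 48.6% of the 2832 genes found in 1 to 8 VZ/SVZ cells. The 13 are not separate observations: 6 were found in 1 cell each, and 3 of those 6 in the same cell. Signals were strong where present: Pcdhb9 read 2450 in its 1 cell, Pcdhb15 read 1684 and Pcdhb19 read 1197. Pcdhb17, the member found most often, was above 50 in 8 cells, 6 with Tubb3 and 2 without, at 122 to 1144. Pcdhb20 was found in 5 cells with Tubb3, 0 without and 1 in the CP, at 50.1 to 254, and Pcdhb3 in 4 with Tubb3, at 52.9 to 959.

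The cells differed in which beta genes they held. The 23 cells with any held 16 different sets of genes, 11 of which were found in 1 cell only. There was 1 beta gene in 12 cells, 2 in 9 and 3 or more in 2, and the most was 4. CP replicate 1 held Pcdhb7 at 150.6, replicate 2 held Pcdhb20 at 217 and replicate 3 held Pcdhb22 at 1413, and no CP cell held a second one. By all 3 markers, 8 of 10 cells with Tubb3 and neither Sox2 nor Eomes held a beta gene (80%, interval 44.4% to 97.5%), 6 of 11 cells with all 3 markers, 1 of 8 with Sox2 and Tubb3 (12.5%), 1 of 6 with Eomes and Tubb3 (16.7%), and 3 of 20 cells with Sox2 alone (15%, 3.21% to 37.9%). The larger share with Tubb3 thus came from 2 of its 4 classes, and the other 2 had shares near that of cells with Sox2 alone. Within Sox2 cells the share was 7 of 19 with Tubb3 and 4 of 30 without. Within letter X it was 4 of 11 and 2 of 20, and in the other letters 12 of 24 and 2 of 11. The cells with Tubb3 had the lower median gene number, 4622 against 4889, and the part of this in the shares was not tested. Beta genes are near copies of each other, so a probe set may read a sister gene, and which gene a single detection names is less sure than that a beta gene was present.

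**Figure D4:**
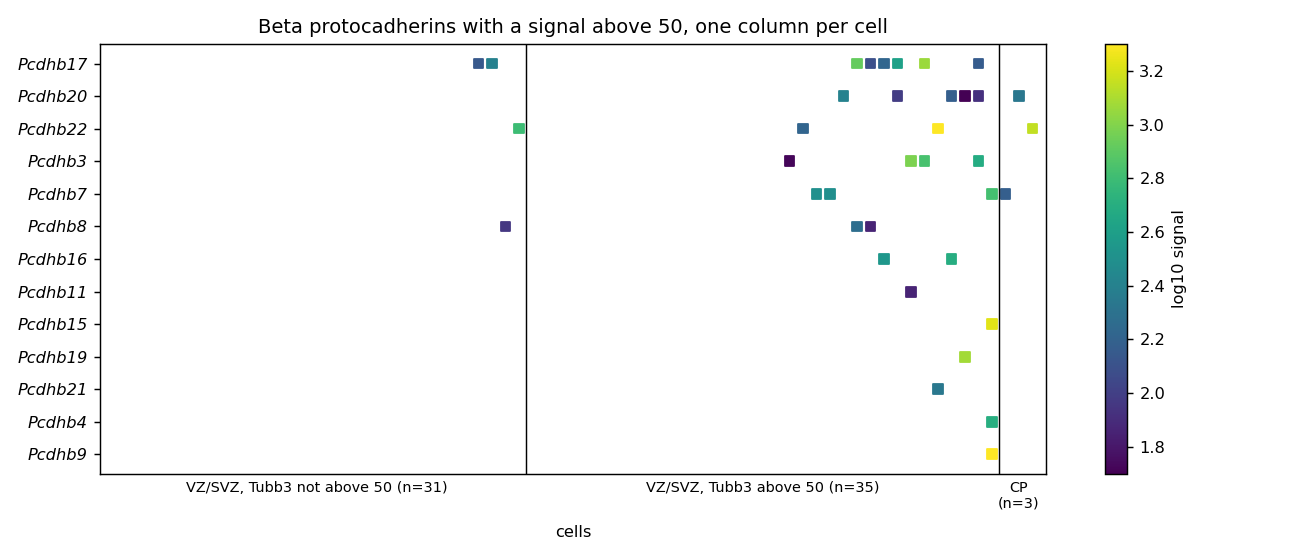
Beta protocadherins with a signal above 50, 1 row per gene and 1 column per cell, with the colour giving log10 signal. Cells are grouped as VZ/SVZ without Tubb3 (31), VZ/SVZ with Tubb3 (35) and CP (3), and ordered inside a group by their number of beta genes. The 4 detections without Tubb3 are in 4 cells, and 30 lie in 16 cells with Tubb3.

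The one gamma protocadherin with a probe set of its own, Pcdhgc4, was above 50 in 14 of 66 VZ/SVZ cells and 0 of 3 CP cells. It was found in 9 of 35 cells with Tubb3 and 5 of 31 without. Its RNA shares the last exons with the other gamma genes, so what the probe set reads may not be this gene alone. Of the members found in few cells, Cdh7 passed in 4 VZ/SVZ cells, Pcdh20 in 2 and Cdh20, Cdh22, Pcdh1, Pcdh11x and Pcdh15 in 1 each.

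Genes that work with the members were counted by the same rule. Beside them, the genes seen in at least 10% of cells were higher or lower at 9.43% and 26.6% in the CP (median difference -0.43), 11% and 6.79% with Sox2, 2.29% and 2.37% with Eomes, and 3.64% and 5.38% with Tubb3. Of 12 catenins and cadherin linkers, 1 was higher and 7 lower in the CP, with a median difference of -1.31. Ctnna1 (alpha-E-catenin, which couples cadherins to actin) was above 50 in 62 of 66 VZ/SVZ cells and 1 of 3 CP cells, a difference of -3.85. Ctnnd2, the neuronal delta-catenin, was higher by 1.56. With Sox2, 3 catenin list genes were higher and 1 lower: Pkp4 was higher by 2.49 and Ctnna1 by 1.88, while Ctnna2, the neuronal alpha-catenin, differed by -1.25. With Eomes 0 were higher and 1 lower (Ctnnd2, -1.71), and with Tubb3 1 was higher and 1 lower, Ctnna1 differing by -1.13.

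Of 21 measured larger relatives of the cadherins, 5 were higher and 2 lower in the CP. Celsr1, a planar polarity receptor, was above 50 in 58 of 66 VZ/SVZ cells and 0 of 3 CP cells and differed by -4.33. Fat1, a giant cadherin, was in 48 of 66 and 0 of 3 and differed by -3.46. Celsr3, which guides axon tracts, was higher in the CP by 3.09. With Sox2, 2 were higher and 3 lower, led by Fat1 at 2.73, Celsr3 at -2.23 and Dchs1 at -2.07. With Tubb3, 2 were higher and 1 lower, led by Celsr3 at 1.88 (21 of 35 against 2 of 31 cells), and with Eomes 1 was higher and 0 lower, Celsr1 by 1.62. These comparisons share the VZ/SVZ cells and are not independent.

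Of 8 WAVE complex genes measured, 0 were higher and 1 lower in the CP, 2 were higher and 0 lower with Sox2 (Wasf2 by 1.69 and Nckap1 by 1.68), none passed with Eomes, and Wasf2 alone passed with Tubb3, at -1.51. Of 12 factors that shape or silence the clustered protocadherin loci, 0 were higher and 7 lower in the CP. There were 5 higher and 0 lower with Sox2, 1 higher and 0 lower with Eomes and 0 higher and 1 lower with Tubb3. Over the genes seen in at least 10% of cells, 26.6% were lower in the CP and 11% higher with Sox2. Stag2, a cohesin subunit, differed by -2.33, 1.68 and -1.21 in the CP, Sox2 and Tubb3 comparisons. Of 8 cadherin repressors, Zeb1 was the 1 to pass in the CP, at -2.80, and with Sox2 Zeb1 was higher by 1.64 and Scrt2 differed by -1.26. No repressor passed with Eomes or Tubb3.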

How the data were processed

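Each of 69 samples is the amplified RNA of 1 cell on 1 Affymetrix array. The deposited values are linear probe set intensities, made by the authors with MAS5 per the submitters' processing notes. Version and scaling are not given in the sources used here, and the mean after trimming 2% at each end ran from 50.1 to 142 over cells. Values were used as deposited. Of 45101 probe sets, 34958 had 1 gene in the platform annotation, and these gave 18194 genes. Probe sets with several genes (932) or none (9211) were left out, among them 6 shared by 14 alpha protocadherins. All 55 members were found in the RefSeq gene table. Threshold and floor were 50 (5.64 on the log2 scale). Members seen in at least 10% of cells or in at least 2 CP cells are described by value. Genes that are no members are the 3 markers, marker lists and up to 3 per partner list with the largest difference in a comparison. The members and lists were chosen with earlier results of these data known. Intervals are exact Clopper-Pearson at 95%. Alternatives were other floors, scalings, probe sets and cells. The calculation was tested on simulated data made from genes above 50 in every VZ/SVZ cell. That test did not cover the floor of 50, genes missing from most cells or a group of 3 cells. Python 3.11.15, pandas 2.3.3 and scipy 1.17.1 were used.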

Additional observations from a re-analysis of the deposited data

Results flagged for a closer look

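The 6 probe sets shared by several alpha protocadherin genes, which entered no comparison, carried signal above the threshold of 50 in 11 of the 66 VZ/SVZ cells and in 3 of the 3 CP cells. Of the 11, 8 held Tubb3 and 3 did not. They came up because they hold signal in data outside the members' measurements, where no TrpnX control value passed 50. They cannot be assigned to one gene, since the alpha genes share their last exons.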

How the results depend on the processing

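Of 560 differences of the 14 most often found members under the alternatives, 550 moved by less than the pooled SD between cells. That SD is often larger than the difference itself, so this count says little on stability. Pcdh9 by Sox2, for one, went from -1.37 to -0.07 with the mean of all probe sets, within its SD of 1.70. The sign differed from that reported in 54, of which 53 were under 1 log2 unit as reported and 1 was not (Cdh4 by Eomes within letter X, 0.0070). Scaling cells to a common trimmed mean gave the reported members in all 4 comparisons, and quantile normalization gave them plus Cdh11 in the CP. The counts of members past the rule in the CP, Sox2, Eomes and Tubb3 comparisons were 5, 3, 3 and 1 as reported. For the alternatives that follow, the share of all genes past the rule is not given. Those counts therefore describe the members only. With a floor at the 95th percentile of TrpnX (6.26) they were 17, 8, 5 and 5. With a floor of 100 the last 3 were 1, 1 and 0, and with a floor of 25 the Tubb3 count was 3. With the mean of all probe sets of a gene the counts were 2, 0, 1 and 0 and the median number of members per cell 2 (5 as reported), and the Cdh13 and Pcdh9 differences in the CP were then 0 and 0.49. Within letter X the Sox2, Eomes and Tubb3 counts were 10, 1 and 2. All 3 of the Sox2 members were kept and 0 of the 3 Eomes members (the 1 was Pcdh10). For Tubb3, Cdh6 was not kept (the 2 were Cdh4 and Pcdh8). The Sox2 count of 10 rests on only 5 X cells without Sox2. Pcdhb9 and Pcdhb15, which are among the 10, were found in the same 1 cell only. Outside X, Cdh6 was lost from the Sox2 members and the Tubb3 count was 2 with Cdh6 among them, and among cells with Sox2 alone, an alternative chosen after seeing the data, it was 0. Against the D cells alone the CP count was 9. Leaving out 1 CP cell at a time gave 6 each time. The share of cells with a beta protocadherin ran from 36.4% to 50% with Tubb3 and from 9.68% to 18.2% without, over 10 alternatives chosen after seeing the data. No paired analysis was possible because a replicate number only names a cell. With 3 CP cells from no named animal, each CP value describes these cells, and a member at a few copies per cell can be missed.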
